A study of Mus musculus with 48 samples.

Results

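The genes described here are 35 genes of glutathione metabolism and antioxidant defence, matched by symbol to a given list, among the 47643 genes counted in each file. The list was chosen with earlier results of these data known. All 35 were found, and all 35 passed the filter on low counts. They were measured in ribosome-bound RNA of the dorsal hippocampus of 3 mice of the line Tg(Aldh1l1-eGFP/Rpl10a) JD130Htz, in which the ribosomal protein L10a carries eGFP and the Aldh1l1 promoter, active in astrocytes, drives it. An antibody to GFP pulled down the tagged ribosomes from whole astrocytes (Astro) and from perisynaptic astrocytic processes (called PAP, thin branches that wrap synapses). Every animal carried the transgene and gave both compartments. No treatment was applied per the labels, and age and sex are not given in the sources used here. The design asks which translated messages differ between the processes and the whole cell.

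Glutathione is a small thiol peptide that cells make from cysteine, glutamate and glycine. Astrocytes hold much of the brain's glutathione and are known to release it, which feeds glutathione synthesis in neurons. Peroxidases, transferases and peroxiredoxins use glutathione or thioredoxin to reduce peroxides or to conjugate reactive molecules, and the transcription factor Nfe2l2 (Nrf2), held in check by Keap1, drives many of their genes through the antioxidant response element.

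Each library was the sum of 8 technical replicates of 1 animal and compartment, so n = 3 in both groups. Totals were 18707844 to 20293538 counts in Astro and 1829962 to 2980984 in PAP, a 10.6-fold gap between the medians. Levels are given as CPM, a gene's counts relative to its library's total after TMM scaling. In that unit 3 counts, the floor used here, were 0.152 to 0.176 in Astro and 0.991 to 1.55 in PAP. PAP libraries stood apart from each other: over all tested genes the median coefficient of variation between animals was 97.0% in PAP and 22.1% in Astro, and over the antioxidant genes it was 57.5% (33 genes with a PAP count) and 16.5%. All 10 astrocyte markers had more than 3 counts in every library, and their summed level was lower in PAP, at 3568, 8284 and 14246 CPM in animals 1 to 3 against 23399 to 31700 in Astro. B and plasma cell markers summed to 2739 to 5778 CPM in PAP and 39.6 to 63.6 in Astro, with Cd79a and Ighm at 0 in PAP. RNAs kept in the nucleus summed to 1954 to 5281 CPM in PAP and 195 to 315 in Astro. Red blood cell markers summed to 456, 65.5 and 2.64 CPM in PAP animals 1 to 3, with Slc4a1 at 0, and to 13.0 to 22.2 in Astro. Neuron markers summed to 429 to 1291 CPM in PAP and 640 to 1138 in Astro, and microglia markers to 21.5 to 60.7 and 42.1 to 89.3, with Cx3cr1, P2ry12, Tmem119 and Aif1 at 0 in PAP. Markers of the oligodendrocyte lineage summed to 476 to 1061 CPM in PAP and 1043 to 1087 in Astro, and those of endothelial and mural cells to 2.64 to 12.9 and 23.1 to 44.6. Single neuron markers went both ways: by the edgeR test Syt1 was higher in PAP (177 to 277 CPM against 67.1 to 113, adjusted p 0.0414) and Snap25 lower (44.4 to 167 against 395 to 662, adjusted p 0.0296). With the animal as a block neither passed (edgeR adjusted p 0.206 for Syt1 and 0.127 for Snap25). Camk2a lay above Astro in every PAP library (105 to 392 CPM against 24.0 to 84.2) without passing (edgeR adjusted p 0.0663). The part of these cell types in the results below was not tested. In pulldowns from bulk tissue, fewer astrocyte fragments and less of a message per fragment cannot be told apart.

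The promoter sequences are shown because many genes of this group are known Nfe2l2 targets. The core of the antioxidant response element, TGACNNNGC, was searched on both strands of the 300 bases around each gene start (250 before, 50 after) in RefSeq sequences of GRCm38.p6. The table held 29 of the 35 genes, and 8 of these (27.6%) had at least 1 match, against 14% of all 27025 genes in the table and 16.9% of the 10553 tested genes in it. The list holds known Nfe2l2 targets by design, so these shares are a description and no test. Hmox1, Gsr, Gsta4, Sod3, Prdx6 and Gclc had no entry, and they are in neither set of fold changes compared below. The matches in genes whose values are given in full below are printed on the gene's strand, with the match in capitals; where the capitals begin with G, the core lies on the opposite strand. They lie at chr3:107895792-107895840 (plus strand) for Gstm5, chr4:116685446-116685494 (plus) for Prdx1, chr6:138140451-138140499 (plus) for Mgst1, chr3:122245403-122245451 (plus) for Gclm and chr2:75704875-75704913 (minus) for Nfe2l2, whose match is at the edge of the window. Gene starts are those of RefSeq and can differ from the gene limits printed below, which are GENCODE's; the Mgst1 stretch lies upstream of the RefSeq start and downstream of the GENCODE start.
Gstm5: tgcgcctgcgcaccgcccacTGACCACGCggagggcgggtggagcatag
Prdx1: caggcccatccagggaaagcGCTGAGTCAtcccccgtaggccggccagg
Mgst1: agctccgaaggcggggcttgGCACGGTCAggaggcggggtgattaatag
Gclm: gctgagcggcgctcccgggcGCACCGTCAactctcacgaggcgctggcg
Nfe2l2: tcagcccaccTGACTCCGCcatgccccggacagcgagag
Gstm7, Txnrd1 and Sod1 also had a match. The log2 fold changes (PAP minus Astro) of the 8 genes ran from -2.47 to 0.14 with a median of -1.66, and that of the 21 genes without a match was -0.99, beside -0.53 over all tested genes. These values are from the fit without the animal as a block. With the block the 8 genes ran from -7.51 to 0.052, and the median over all tested genes was -1.63. The difference between the 8 and the 21 genes was not tested. A match is a description of letters in this window and not of binding.

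Across the group, 7 of 35 genes (20%) were lower in PAP with an edgeR adjusted p under 0.05, beside 15.4% of all 14618 tested genes, and 0 were higher, beside 5.92%. The 7 were Prdx6, Gstm1, Prdx1, Mgst1, Slc7a11, Nqo1 and Hmox1. At an unadjusted p under 0.05 the edgeR test gave 16 of 35 lower, beside 21.5% of tested genes, and 0 higher, beside 9.39%. The DESeq2 Wald test called 15 lower and 0 higher, beside 24.2% and 11.8% of the genes it tested. The 20% called lower by edgeR at an adjusted p under 0.05 was near the 15.4% of all tested genes. At equal depth, after random thinning of the libraries to 1829962 counts, edgeR called 6 of 35 lower and 0 higher, beside 8.79% and 6.32% of genes. In 22 genes (62.9%) every PAP library lay below every Astro library, beside 35.1% of tested genes, and in 0 genes every PAP library lay above, beside 10.9%. The median log2 fold change of the 35 genes was -1.14, against -0.53 over all tested genes, and 30 were negative (85.7%, against 60.9%).

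With the animal as a block, edgeR called 0 of the 35 genes, beside 0.0342% of tested genes lower and 0.876% higher. At an unadjusted p under 0.05 the blocked fit gave 13 lower, beside 17.9% of tested genes, and 0 higher, beside 5.42%. The adjusted p of the 7 genes was then 0.11 to 0.206. The group's median was -1.27 with the block and that of all genes -1.63, so the group lay below all genes without the block and above them with it. Each fit without 1 Astro library also called 0 of the 35. Without Astro animal 1, 2 or 3 only 0.00773%, 0.0388% and 0.0389% of all tested genes were called lower and 0.881%, 0.954% and 1.05% higher. The fits without PAP animal 1, 2 or 3 called 10, 13 and 13 lower and 0 higher. Those fits called 19.6%, 17.8% and 20.2% of their tested genes lower and 5.75%, 6.74% and 7.57% higher. Of the 7 genes, Gstm1 was not called without PAP animal 2. Calls came in for Gpx4, Gsr and Gstm5 without animal 1, for Cat, Gsta4, Mgst3, Nfe2l2, Prdx2, Prdx5 and Sod3 without animal 2, and for Gclm, Gpx4, Gstm5, Gstp1, Sod2 and Txn2 without animal 3. Without animal 2, Mgst3, Nfe2l2 and Sod3 had no PAP counts left.

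**Figure D1:**
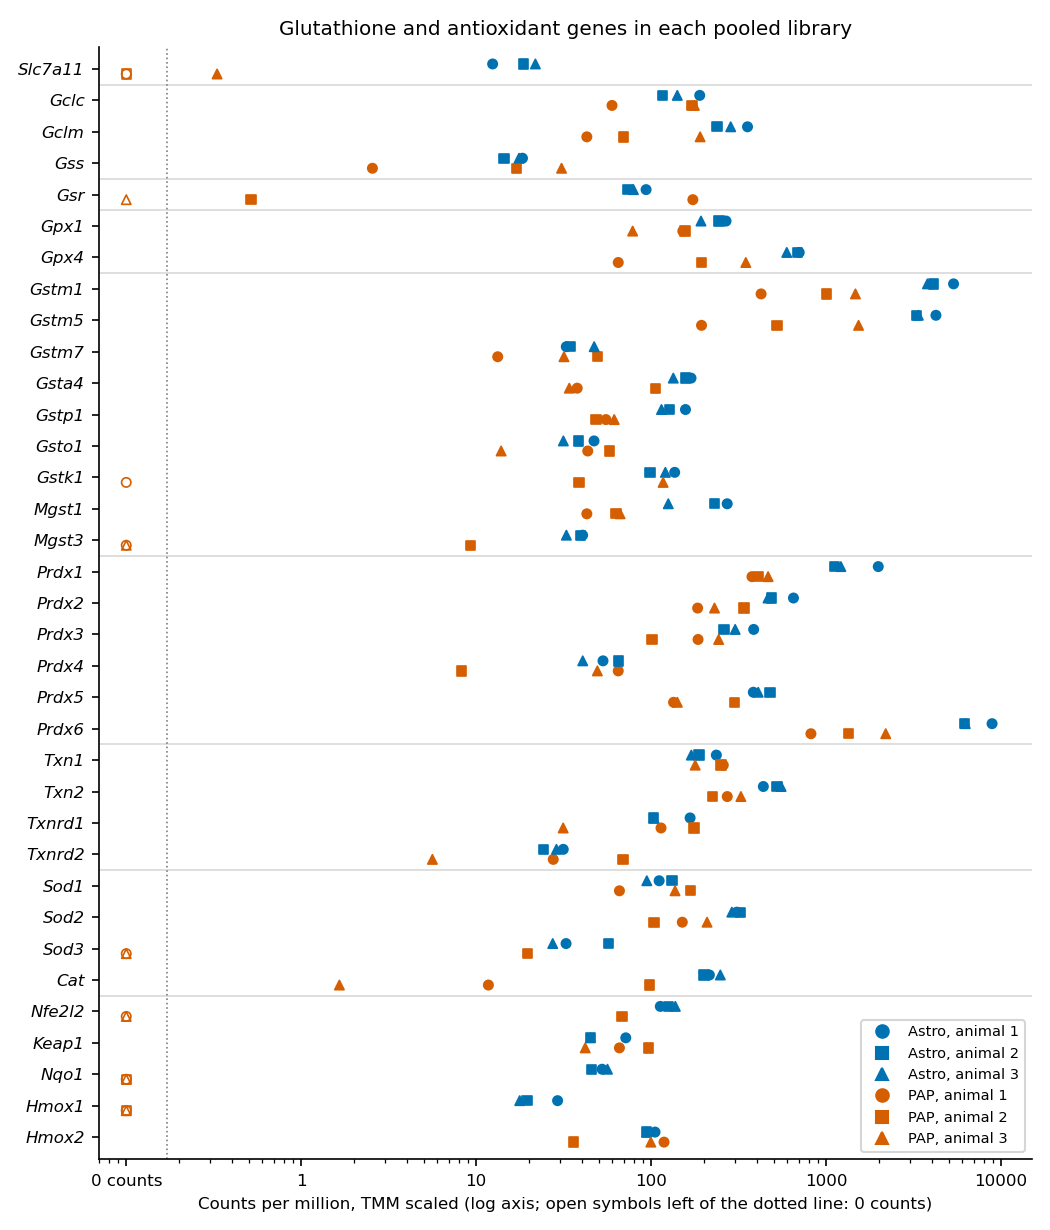
Each row is 1 gene, ordered by role with grey lines between roles, and each symbol is 1 pooled library (blue Astro, orange PAP; circle, square and triangle for animals 1 to 3). The log axis gives CPM, open symbols mark 0 counts, and 22 of the 35 genes have all PAP libraries below all Astro libraries.

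Together the 35 genes took 2.41%, 1.82% and 1.98% of each Astro library in animals 1 to 3, and 0.445%, 0.669% and 0.862% of each PAP library. Every PAP share was below every Astro share, and the mean was 3.14 times as high in Astro (2.07% ± 0.307 against 0.659% ± 0.209, SD, n = 3). Prdx6, Gstm1, Gstm5 and Prdx1 made up 73.5% to 77.7% of the group's counts in Astro and 43.7%, 52.0% and 66.6% in PAP animals 1 to 3. Without Prdx6 the mean shares differed by -0.894 percentage points in place of -1.41. The difference was largest in animal 1 and smallest in animal 3: the summed CPM of the group was 6.34, 3.16 and 2.31 times as high in Astro as in PAP of animals 1 to 3. The summed astrocyte markers differed 8.89, 3.16 and 1.64 times in the same animals, and their part in the result was not tested.

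**Figure D2:**
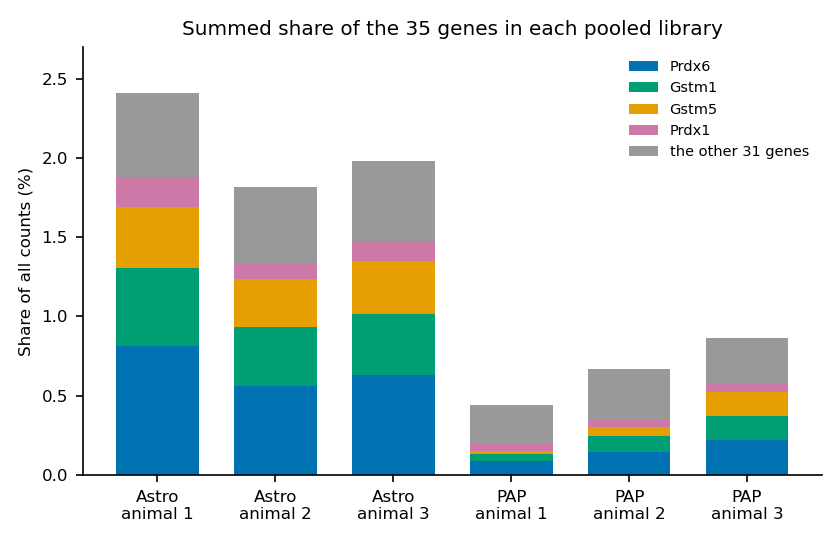
Bars give the percentage of all counts held by the 35 genes in each pooled library, stacked as Prdx6, Gstm1, Gstm5, Prdx1 and the other 31 genes. Astro bars reach 1.82% to 2.41% and PAP bars 0.445% to 0.862%, with the lowest in animal 1.

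Of the 5 genes of cystine import and of glutathione synthesis and recycling, 1 was called lower, beside 15.4% of all tested genes. Slc7a11 (ENSMUSG00000027737, chromosome 3, 49892526 to 50443614, minus strand) encodes the cystine-glutamate exchanger xCT, which brings in the cysteine for glutathione. Astro libraries of animals 1 to 3 held 231, 318 and 429 of its counts, and the PAP libraries 0, 0 and 1. This is a ratio of 111 in shares of counts, with a 95% interval of 19.9 to 4391 that covers counting error only (edgeR adjusted p 0.0208, or 0.206 when blocked). Astro libraries thinned to the smallest PAP total still held 25, 30 and 41 counts. Slc7a11 had the lowest Astro level per kilobase of exon of the 35 genes, 1.27 ± 0.343 CPM (SD, n = 3).

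Gclc and Gclm encode the catalytic and modifier subunits of glutamate-cysteine ligase, the rate-limiting step of synthesis. Gclm stood at 355, 237 and 285 CPM in Astro animals 1 to 3 and at 42.9, 69.6 and 190 in PAP. Its groups did not overlap, with a log2 fold change of -1.53 ± 0.60 (SE) that did not pass the test (edgeR adjusted p 0.138). Gclc stood at 189, 116 and 141 CPM in Astro and at 59.7, 171 and 176 in PAP. PAP animals 2 and 3 lay within the Astro range of Gclc and animal 1 lay below, and its log2 fold change was -0.13 ± 0.51 (SE; edgeR adjusted p 0.907). The difference between these subunits was not tested. Gss, glutathione synthetase, stood at 14.4 to 18.4 CPM in Astro and at 2.55, 17.0 and 30.7 in PAP animals 1 to 3, which spans the Astro values. Gsr, which reduces oxidized glutathione, stood at 73.7 to 93.5 CPM in Astro and had 339, 1 and 0 counts in PAP animals 1 to 3. In PAP animal 1 it stood at 173 CPM, above all Astro libraries.

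Gpx1 and Gpx4 are glutathione peroxidases, selenoenzymes that reduce peroxides. Both lay below Astro in every PAP library, beside 35.1% of all tested genes, and neither passed the test. Gpx4, which reduces lipid peroxides in membranes and guards against ferroptosis, stood at 701, 687 and 595 CPM in Astro animals 1 to 3 and at 64.8, 194 and 347 in PAP. The log2 fold change was -1.71 ± 0.58 (SE; edgeR adjusted p 0.0936), and the PAP values ran from 64.8 in animal 1 to 347 in animal 3. Gpx1, which reduces hydrogen peroxide in the cytosol and mitochondria, stood at 268, 244 and 193 CPM in Astro and at 152, 156 and 78.3 in PAP (log2 fold change -0.87 ± 0.39, SE; edgeR adjusted p 0.191). In PAP, Gpx4 was highest in animal 3 and Gpx1 lowest there.

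Glutathione transferases, which join glutathione to reactive molecules, included the most abundant genes of the group per kilobase of exon. Gstm1 (ENSMUSG00000058135, chromosome 3, 108012255 to 108017973, minus strand) reached 2993 ± 559 CPM per kilobase in Astro (SD, n = 3), place 10 among all genes, and Gstm5 2841 ± 412, place 11; these levels did not differ beyond their spread. In PAP they stayed the highest of the group, at 656 ± 355 and 587 ± 544.9 CPM per kilobase, places 73 and 85. Gstm1 stood at 5343, 4094 and 3789 CPM in Astro animals 1 to 3 and at 425, 1006 and 1469 in PAP. It was lower in PAP by 12.6, 4.07 and 2.58 times within animals 1 to 3, with a log2 fold change of -2.19 ± 0.46 (SE; edgeR adjusted p 0.0212, and 0.172 with the block). Gstm5 stood at 4238, 3294 and 3362 CPM in Astro and at 194, 524 and 1531 in PAP. Its log2 fold change was -2.28 ± 0.71 (SE), with a wider spread in PAP than that of Gstm1, and it did not pass (edgeR adjusted p 0.071). Reads of Gstm5 cannot be told apart by strand from those of the antisense gene 4933431E20Rik, which overlaps 13.9% of its exons and held 31701 counts in Astro against 201249 of Gstm5 and 1652 in PAP against 6030.

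Mgst1 (ENSMUSG00000008540, chromosome 6, 138140316 to 138156755, plus strand), a microsomal transferase with peroxidase activity, stood at 272, 229 and 125 CPM in Astro animals 1 to 3 and at 42.9, 62.9 and 66.4 in PAP. The PAP libraries lay close together and below all Astro libraries, with a log2 fold change of -1.86 ± 0.45 (SE; edgeR adjusted p 0.0297, and 0.206 with the block). At equal depth its adjusted p was 0.051. Gstp1, the pi-class transferase, stood at 157, 127 and 114 CPM in Astro and at 55.1, 48.5 and 61.5 in PAP, a log2 fold change of -1.27 ± 0.40 (SE; edgeR adjusted p 0.072). Gstp2 and a processed pseudogene match Gstp1 over 707 and 631 bases at 98.2% and 97.6% identity, but together held only 1.47% as many counts in Astro and 5.93% in PAP. Gsta4, which conjugates the lipid peroxidation product 4-hydroxynonenal, stood at 169, 156 and 134 CPM in Astro and at 37.8, 106 and 34.0 in PAP (log2 fold change -1.37 ± 0.57, SE; edgeR adjusted p 0.162). Mgst3 stood at 40.6, 39.4 and 32.7 CPM in Astro and had 0, 18 and 0 counts in PAP. Gstm7, Gsto1 and Gstk1 overlapped between groups, with adjusted p of 0.689 to 0.99 in edgeR, and Gstk1 ran from 0 to 117 CPM in PAP.

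All 6 peroxiredoxins, which reduce peroxides through a reactive cysteine, had negative log2 fold changes, beside 60.9% of all tested genes, and 2 were called lower, beside 15.4%. No property of the family is read from these counts. Prdx6 (ENSMUSG00000026701, chromosome 1, 161240112 to 161251219, minus strand), an astrocyte-rich peroxiredoxin that also acts on phospholipids, held more counts than any other gene of the group, 31% to 33.7% of the group's counts in Astro. It stood at 8869, 6183 and 6237 CPM in Astro animals 1 to 3 and at 818, 1346 and 2188 in PAP. Every PAP library lay below every Astro library, and within animals the level was 10.8, 4.59 and 2.85 times as high in Astro. The log2 fold change was -2.29 ± 0.39 (SE; edgeR adjusted p 0.0208, and 0.11 with the block).

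Prdx1 (ENSMUSG00000028691, chromosome 4, 116685544 to 116700822, plus strand), the main cytosolic peroxiredoxin of many cells and an Nfe2l2 target, stood at 1984, 1117 and 1213 CPM in Astro and at 377, 411 and 466 in PAP. Its PAP libraries lay close together, with an SD of 44.9 CPM against 691 for Prdx6 (n = 3), and the log2 fold change was -1.78 ± 0.29 (SE; edgeR adjusted p 0.0208, and 0.163 with the block). Prdx2 stood at 650.0, 489 and 465 CPM in Astro and at 184, 339 and 230.0 in PAP (log2 fold change -1.09 ± 0.33, SE; edgeR adjusted p 0.0616). Prdx3, the mitochondrial form, stood at 385, 260.4 and 302 CPM in Astro and at 185, 101 and 243 in PAP (edgeR adjusted p 0.224). Prdx5 stood at 383, 478 and 409 CPM in Astro and at 134, 301 and 141 in PAP (edgeR adjusted p 0.0979), and Trmt112 overlaps 19.1% of its exons on the opposite strand. Prdx4, the form of the endoplasmic reticulum, overlapped between groups, at 40.6 to 64.8 CPM in Astro and 8.25 to 64.8 in PAP.

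Of the 4 genes of the thioredoxin system, which reduces most peroxiredoxins, 0 were called, beside 15.4% of all tested genes lower and 5.92% higher. Nothing is read from a count this small. Txn1, the cytosolic thioredoxin, stood at 236, 188 and 169 CPM in Astro animals 1 to 3 and at 258, 250 and 178 in PAP. The groups overlapped, and the log2 fold change was 0.21 ± 0.31 (SE; edgeR adjusted p 0.734). Per kilobase of exon Txn1 was place 8 of the 35 genes in Astro, at 188 ± 32.5 CPM, and place 4 in PAP, at 218 ± 41.7 (SD, n = 3). Txn2, the mitochondrial thioredoxin, stood at 437, 524 and 552 CPM in Astro and at 272, 223 and 325 in PAP. It lay lower in all PAP libraries without passing the test (log2 fold change -0.88 ± 0.27, SE; edgeR adjusted p 0.0627). The reductases Txnrd1 and Txnrd2 overlapped between groups, at 31.4 to 175 and 5.62 to 69.1 CPM in PAP against 103 to 167 and 24.2 to 31.4 in Astro, both lowest in PAP animal 3 and highest in PAP animal 2.

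Superoxide dismutases turn superoxide into hydrogen peroxide, which catalase breaks down. Of these 4 genes 0 were called, beside 15.4% of all tested genes lower and 5.92% higher. Sod1, the cytosolic copper-zinc enzyme, overlapped between groups, at 94.4 to 131 CPM in Astro and 65.8 to 168 in PAP (log2 fold change 0.14 ± 0.47, SE; edgeR adjusted p 0.892). Sod2, the mitochondrial manganese enzyme, stood at 308, 324 and 289 CPM in Astro and at 151, 104 and 209 in PAP (log2 fold change -0.99 ± 0.35, SE; edgeR adjusted p 0.0991). The longest Sod2 transcript holds stretches of 102 to 193 bases that match 9 other genes at 95% identity or more. Together these held 59.1% as many counts as Sod2 in Astro and 97.8% in PAP, so the Sod2 level and its difference between groups are uncertain. Sod3, the secreted form, stood at 32.6, 57.0 and 27.4 CPM in Astro and had 0, 38 and 0 counts in PAP. Cat, the catalase of peroxisomes, stood at 215, 201 and 248 CPM in Astro and at 11.7, 97.4 and 1.65 in PAP. All PAP values of Cat lay below Astro but spread widely, and the log2 fold change of -2.59 ± 1.28 (SE) did not pass (edgeR adjusted p 0.241). Without PAP animal 2 it was -5.14 (edgeR adjusted p 0.0249). Whether Sod1 and Sod2 differ in their change was not tested.

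Of the 5 genes of Nfe2l2 regulation and targets, 2 were called lower, beside 15.4% of all tested genes. Nqo1 and Hmox1, classic Nfe2l2 targets, had 0 counts in PAP, and Nfe2l2 had counts in PAP of 1 animal. Such absence was not particular to the group: 8.57% of the 35 genes had 3 counts or fewer in all 3 PAP libraries, beside 16.5% of all tested genes. Nfe2l2 stood at 113, 125 and 137 CPM in Astro animals 1 to 3 and had 0, 132 and 0 counts in PAP (log2 fold change -2.47 ± 2.08, SE; edgeR adjusted p 0.518). Keap1, the adaptor that targets Nfe2l2 for degradation, stood at 71.6, 45.2 and 44.9 CPM in Astro and at 65.8, 96.9 and 42.0 in PAP, with overlap (log2 fold change 0.34 ± 0.56, SE; edgeR adjusted p 0.767). Nqo1 (ENSMUSG00000003849, chromosome 8, 107388225 to 107403206, minus strand), a quinone reductase, stood at 52.4, 45.4 and 56.2 CPM in Astro and at 0 counts in each PAP library. With 3 counts per library as the floor, PAP was at least 37.9-fold lower (edgeR adjusted p 0.0208, or 0.206 when blocked). Hmox1 (ENSMUSG00000005413, chromosome 8, 75093621 to 75100589, plus strand), the inducible heme oxygenase, had 543, 333 and 349 counts in Astro and 0 in each PAP library, at least 16.3-fold lower (edgeR adjusted p 0.0208, or 0.206 when blocked). Both bounds cover counting error only and not the spread between PAP libraries, in which Nfe2l2 had 132 counts in animal 2 and 0 in animals 1 and 3. Astro libraries thinned to the smallest PAP total held 78, 85 and 101 counts of Nqo1 and 40, 38 and 27 of Hmox1. Hmox2, the constitutive heme oxygenase, stood at 93.8 to 105 CPM in Astro and at 118, 36.1 and 99.5 in PAP (edgeR adjusted p 0.862), although Cdip1 overlaps 40.2% of its exons on the opposite strand.

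**Figure D3:**
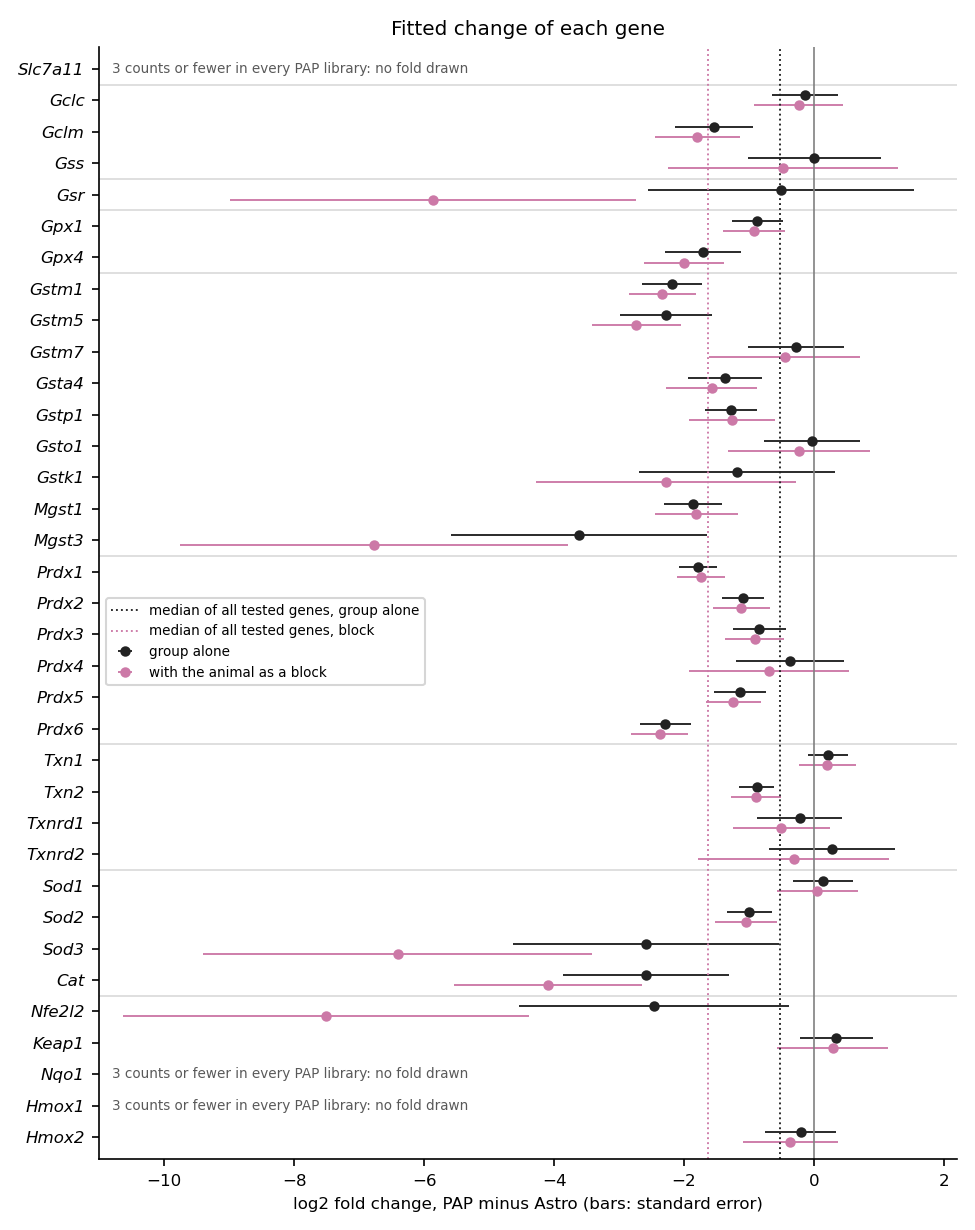
Points give the fitted log2 fold change of each gene, PAP minus Astro, with its standard error, for the fit of group alone (black) and with the animal as a block (pink), and dotted lines mark the median of all tested genes, -0.53 and -1.63. Gsr moved from -0.51 to -5.86 with the block and Nfe2l2 from -2.47 to -7.51, while Prdx6 stood at -2.29 and -2.38.

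Several genes were present in PAP of 1 or 2 animals and missing in the rest. Such a split was rarer in the group than over all tested genes. Of the 35 genes, 2.86% exceeded the floor of 3 in exactly 2 PAP animals, beside 22.6% of all tested genes. The shares that exceeded it in only 1 PAP animal were 11.4% and 21.4%. Gsr, Gstk1, Mgst3, Sod3 and Nfe2l2 had more than 3 counts in 1 or 2 PAP libraries, and Slc7a11, Nqo1 and Hmox1 in none; the other 27 genes (77.1%) had more than 3 in all of them, against 39.6% of all tested genes. Gsr had 27 to 53 counts in each of the 8 technical replicates of PAP animal 1, 1 count in all those of animal 2 and 0 in those of animal 3. Nfe2l2 had 10 to 23 counts in each technical replicate of PAP animal 2 and 0 in all those of animals 1 and 3. Gstk1 had 39 to 53 in those of animal 3, 3 to 12 in those of animal 2 and 0 in those of animal 1. In Astro the highest library of any of the 35 genes was at most 2.17 times the lowest. Thinned to the smallest PAP total, the Astro libraries held 115 to 166 counts of Gsr, 210 to 248 of Nfe2l2 and 144 to 244 of Gstk1.

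**Figure D4:**
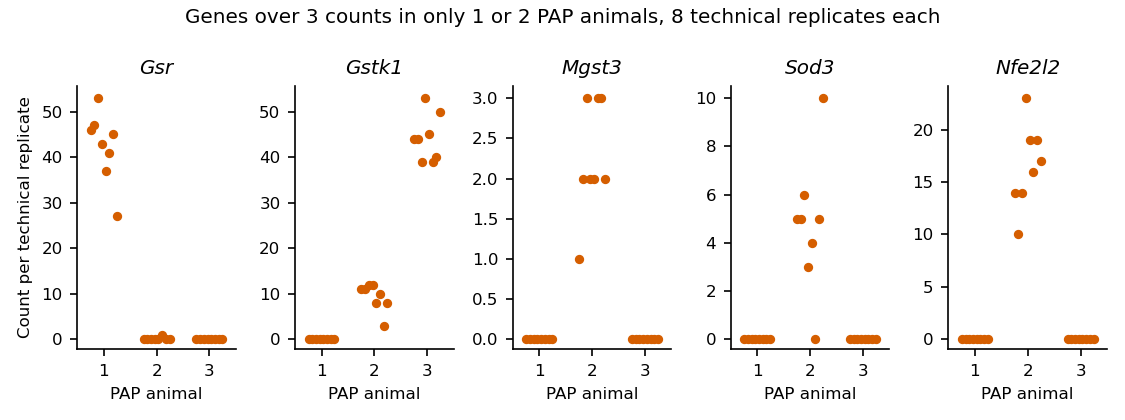
Each point is the count of 1 technical replicate of a PAP library, 8 for each animal, for the 5 genes with more than 3 counts in only 1 or 2 PAP libraries. Gsr is counted in animal 1, Mgst3, Sod3 and Nfe2l2 in animal 2, and Gstk1 in animals 2 and 3.

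The genes did not rank the PAP animals in 1 way. Of the 33 genes with a PAP count, 15 were highest in animal 3, 14 in animal 2 and 4 in animal 1. The log2 fold change correlated across the 35 genes with exonic length at a Spearman rho of 0.176 and with the Astro level per kilobase at -0.239; genes share libraries and are not independent, so these are descriptions.

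A wider list of 85 genes of the same pathways was read from the same fit. Of 75 tested, 13 were lower in PAP (17.3%) and 1 was higher by the edgeR test, beside 15.4% and 5.92% of all tested genes, and the median log2 fold change was -1.12. Other glutathione peroxidases and transferases had 4 lower of 19 tested, glutathione synthesis, breakdown and transport 2 of 16, glutaredoxins, thioredoxin partners and methionine sulfoxide reductases 3 of 17, NADPH supply 2 of 7, and the Nfe2l2 pathway 2 of 16. The lower genes with the largest fitted change were nearly absent from PAP. Gstm6, a mu-class transferase, stood at 33.7 to 38.8 CPM in Astro and at 0 counts in PAP, at least 26.3-fold lower (edgeR adjusted p 0.0208). Ptges, a prostaglandin E synthase, was at least 18.6-fold lower (edgeR adjusted p 0.0223). Both bounds cover counting error only. Sesn1, a stress-induced sestrin, had 10458 counts in Astro and 5 in PAP, a ratio in shares of 237.5 (95% counting interval 102 to 732, edgeR adjusted p 0.0208). All 5 PAP counts came from animal 3, where its CPM was 117 times as high in Astro. Nnt, the mitochondrial transhydrogenase that makes NADPH, had 2694 and 1 (ratio 306, 54.9 to 12090), and Txnrd3 758 and 1 (86.1, 15.4 to 3405). With the block none of the 13 lower genes passed in edgeR, and Sesn1 came nearest (adjusted p 0.0791).

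Mafg (ENSMUSG00000051510, chromosome 11, 120625117 to 120633600, minus strand) was the 1 gene of the wider list called higher. It encodes a small Maf protein that pairs with Nfe2l2 to bind the antioxidant response element. Mafg stood at 57.5, 40.1 and 79.4 CPM in Astro animals 1 to 3 and at 3482, 2268 and 2106 in PAP. The groups lay far apart, with a log2 fold change of 5.47 ± 0.40 (SE; edgeR adjusted p 0.00211, and 0.0151 with the block). In the same libraries the summed B and plasma cell markers stood at 2739 to 5778 CPM in PAP and 39.6 to 63.6 in Astro. Summed RNAs kept in the nucleus stood at 1954 to 5281 and 195 to 315. Whether the level of Mafg goes with these was not tested. Sirt7 overlaps 2.21% of the exons of Mafg on the same strand. Per kilobase of exon it was place 117 among all genes in PAP and place 4940 in Astro.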

How the data were processed

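Ribosome-bound RNA was measured in 48 files, 8 technical replicates for each of 3 animals and 2 compartments. The deposited values are raw counts per Ensembl gene per the file headers, 1 file for each technical replicate. The submitters' processing notes name bcl2fastq 2.18.0.12, Trim Galore 0.4.1, STAR 2.5.2b, SAMtools, HTSeq 0.5.3 and mm10, with no roles; the strand setting is not given in the sources used here. Per the labels' protocols, RNA was amplified with a SMART-Seq kit before Nextera XT libraries were made, and no molecular identifiers are mentioned, so intervals and floors cover counting error only.

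Symbols, positions and exonic lengths (all exons of a gene merged) came from GENCODE M21 on GRCm38, the mm10 build, which held 99.12% of the IDs. Among technical replicates of 1 library the chi-square dispersion index was 1.01 to 1.04 within replicates 1 to 4 and within 5 to 8, and 1.37 to 3.38 between their sums, so all 8 were summed and counted as 1 sample. edgeR 4.0.16 in R 4.3.3 fitted a quasi-likelihood test of PAP against Astro on 14618 genes kept by filterByExpr (minimum count 10), with TMM scaling, Benjamini-Hochberg adjustment over all tested genes and a threshold of 0.05. Standard errors are the log2 fold change over the square root of F. The labels give the same animals in both groups, so the numbers pair the samples; the 2 libraries of an animal, each as its deviation from its group mean, correlated at 0.0335, 0.0187 and -0.0326. The tests were tried on simulated counts.

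Values in full are given for genes that passed the test, whose groups did not overlap at a mean of at least 10 CPM, or that were among the 5 highest per kilobase in a group; of the wider list, up to 5 called genes of at least 10 CPM in each direction. The genes, lists and motif were chosen with earlier results of these data known. Near-identical transcripts were sought with blastn 2.17.0 (at least 95% identity over 100 bases). Alternatives were DESeq2 1.42.0 (Wald test and size factors), library size alone, no filter, the animal as a block, equal depth (thinned to 1829962 counts), technical replicates 1 to 4 or 5 to 8, and leaving out each library.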

Additional observations from a re-analysis of the deposited data

How the results depend on the processing

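The 7 lower calls among the 35 genes changed in number with the model and the libraries used. With the replicate block 0 of the 35 were called, and with equal depth and the replicate block also 0, while the DESeq2 Wald test called 15; leaving out 1 library gave 0 to 13. All 7 were among the calls with DESeq2 size factors, library size alone, no filter and technical replicates 1 to 4 or 5 to 8, and 6 (not Mgst1) at equal depth. Over all genes the replicate block gave 128 higher and 5 lower, equal depth with the block 165 and 5, equal depth 986 lower, no filter 571 higher, and DESeq2 1685 higher and 3456 lower; leaving out 1 library gave 114 to 1251 higher and 1 to 3335 lower. The median over the 35 genes was negative throughout, at -0.98 with library size alone, -1.31 without a filter and -0.92 at equal depth; over all tested genes it was -0.37, -1.04 and -0.23 under these settings, against -0.53. By counting error alone, a count of 0 in a PAP library allows a level of up to 0.991 to 1.55 CPM. Without Prdx6 the difference in shares was -0.894 percentage points. The cause was not tested.

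Genes near 0 changed sign, none past the threshold. Gclc was 0.013 with library size alone and 0.019 at equal depth, Gss was -0.16 without a filter, -0.47 with the block and -0.27 in technical replicates 5 to 8, and Gsto1 was 0.061 with DESeq2 size factors, 0.15 with library size alone, 0.14 at equal depth and 0.057 in DESeq2. Txnrd1 was 0.013 and Hmox2 0.0021 at equal depth, Txnrd2 was -0.31 with the block and -0.25 with equal depth and the block, and Sod1 was -0.028 without a filter and -0.030 in technical replicates 1 to 4. Leaving out 1 library gave -0.44 to 0.18 for Gclc, -0.85 to 0.46 for Gss, -8.53 to 0.015 for Gsr, -0.82 to 0.049 for Gstm7, -0.51 to 0.31 for Gsto1, -0.92 to 0.049 for Prdx4, -0.84 to 0.15 for Txnrd1, -0.83 to 0.71 for Txnrd2, -0.21 to 0.40 for Sod1, -0.062 to 0.59 for Keap1 and -0.57 to 0.095 for Hmox2. Gsr without PAP animal 1 was the called exception among these values (edgeR adjusted p 0.0217).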

Other observations

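Of the 75 tested genes of the wider list, 37 (49.3%) lay below Astro in every PAP library, beside 35.1% of all tested genes, and 4 (5.33%) lay above, beside 10.9%. Of these 4, Mafg alone passed. Glrx3 and Glrx5, glutaredoxins with roles in iron-sulfur cluster handling, lay above every Astro library in every PAP library without passing the edgeR test. Glrx3 stood at 118, 126 and 128 CPM in Astro animals 1 to 3 and at 297, 215 and 150 in PAP (adjusted p 0.181), and Glrx5 at 109, 122 and 121 against 163, 226 and 172 (adjusted p 0.217). Pgls, an enzyme of the NADPH-making pentose phosphate pathway, stood at 77.4 to 84.5 CPM in Astro and at 206, 92.3 and 85.6 in PAP, also above Astro in every library without passing (adjusted p 0.434 in edgeR). The other small Maf genes and Bach1, which competes with Nfe2l2 for the same partners, did not share the level of Mafg: Mafk and Bach1 stood at 86.2 and 43.9 CPM in PAP animal 1 and at 0 counts in PAP animals 2 and 3.

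Oplah and Sqstm1 were also lower in PAP; they fall outside the rule for named genes and were chosen after their values were seen. Oplah, which recycles the glutathione breakdown product 5-oxoproline, stood at 57.9 to 101 CPM in Astro and at 5.61 to 6.94 in PAP (edgeR adjusted p 0.0208). Sqstm1, which binds Keap1 and is itself an Nfe2l2 target, stood at 368 to 696 CPM in Astro and at 118 to 220 in PAP (edgeR adjusted p 0.0257). Neither passed with the replicate block (adjusted p 0.206 for both).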
